A study of Mus musculus with 16 samples.

Results

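The hippocampal response to Δ9-tetrahydrocannabinol (THC) in young adult mice was measured on 6 of the 16 bead arrays of the series, 3 from THC-treated and 3 from vehicle-treated male C57BL/6J mice labelled as 2 months old. The THC mice received 3 mg/kg/day for 28 days from an osmotic minipump placed under the skin, and the control mice received the vehicle of ethanol, cremophor and saline for the same 28 days. Both groups then went through a behavioural test between days 33 and 41 and were killed on day 46, so the RNA was taken after the drug had been withdrawn. The other 10 arrays hold 12-month-old males given the same dose of THC (5 arrays) or the same vehicle (5 arrays) on the same schedule. The series' design text speaks of 3 to 5 mice, but no label ties an array to a mouse, so the p-values measure the spread between these samples, which may be technical.

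THC is the main psychoactive compound of cannabis and a partial agonist of the CB1 receptor, a Gi/o-coupled receptor of presynaptic terminals. Its natural ligands, the endocannabinoids, are made in the postsynaptic neuron, travel back across the synapse and reduce transmitter release. In the hippocampus CB1 is densest on a class of inhibitory neurons and is also present on excitatory terminals. The comparison asks what hippocampal gene expression looks like weeks after chronic THC in young animals, set against vehicle.

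Values are log2 intensities after background correction and quantile normalization with the neqc method, and a probe was tested if its detection p was under 0.05 on at least 3 of the 16 arrays. That left 22625 of 45281 probes, which with 1 probe per gene stand for 12020 named genes. Between 41.1% and 45.0% of probes were detected on the 6 arrays of the 2-month groups. Arrays of the same group correlated at r = 0.969 to 0.984 across probes, and arrays of different groups did so about equally, at 0.967 to 0.984. In a principal component analysis the first component held 32.3% of the variance and set the 4 arrays of slide 1 apart, at -50.2 to -33.7 against -0.87 to 31.3 for the other 12. Vehicle array 1 is one of those 4, and no THC array of the 2-month group lies on that slide. Slides 2 and 4 each hold 1 THC and 1 vehicle array of this age (THC array 1 with vehicle array 2, and THC array 3 with vehicle array 3), so each result was also read as a difference within those slides. The array numbers follow the accession order and pair nothing.

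Markers of tissue next to the hippocampus differed between the 6 arrays. All 14 tested choroid plexus markers were lower on average in THC hippocampi, with a median log2 difference of -1.05, and that difference came with 1 vehicle array. The mean of the 14 markers was 5.97, 5.46 and 6.34 on THC arrays 1 to 3, against 6.42, 8.95 and 5.64 on vehicle arrays 1 to 3. Without vehicle array 2 the median difference was -0.11, and without vehicle array 3 it was -1.63. The 9 ependymal markers had the same high array, with a mean of 7.06 on vehicle array 2 against 5.80 to 6.07 on the other vehicle arrays and 5.61 to 5.90 on THC arrays, and 8 of the 9 were lower in THC hippocampi. Of 10 tested striatal markers 9 were lower, with a median of -0.26 that was 0.06 without vehicle array 2 and -0.51 without vehicle array 1.

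Thalamic markers went the other way. Their mean over 12 genes was 9.57, 7.80 and 8.88 on THC arrays, against 8.12, 7.78 and 7.46 on vehicle arrays, and 11 of the 12 were higher in THC hippocampi with a median of 1.05. THC arrays 1 and 3 stood above every vehicle array and THC array 2 lay among them. The median was 0.50 without THC array 1 and 1.65 without THC array 2. The vesicular glutamate transporter Slc17a6 (VGLUT2), which loads glutamate in thalamic neurons, measured 12.13, 10.71 and 11.41 on THC arrays, against 11.01, 9.63 and 8.23 on vehicle arrays. Of 12 listed markers of midbrain dopamine neurons only 5 were tested, of which 3 were detected on all 6 arrays. All 5 were higher as well, with a median of 1.12 that was 0.36 without THC array 1. The dopamine transporter Slc6a3, picked here after its values were seen, measured 9.53, 4.36 and 6.48 on THC arrays, against 4.69, 4.55 and 4.81 on vehicle arrays. One THC array therefore carried most of that difference. The Slc6a3 readings on THC array 2 and on the vehicle arrays lay near the background. Markers of the hippocampus itself were present throughout, with 6 of 8 dentate granule, 6 of 7 CA1 and 8 of 10 CA3 and CA2 markers detected on all 6 arrays. The part of adjacent tissue in the genes below was not tested beyond the values with a marker mean as a covariate that stand beside some of them, and in tissue samples a different number of cells of a type and a different amount of RNA per cell cannot be told apart.

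**Figure D1:**
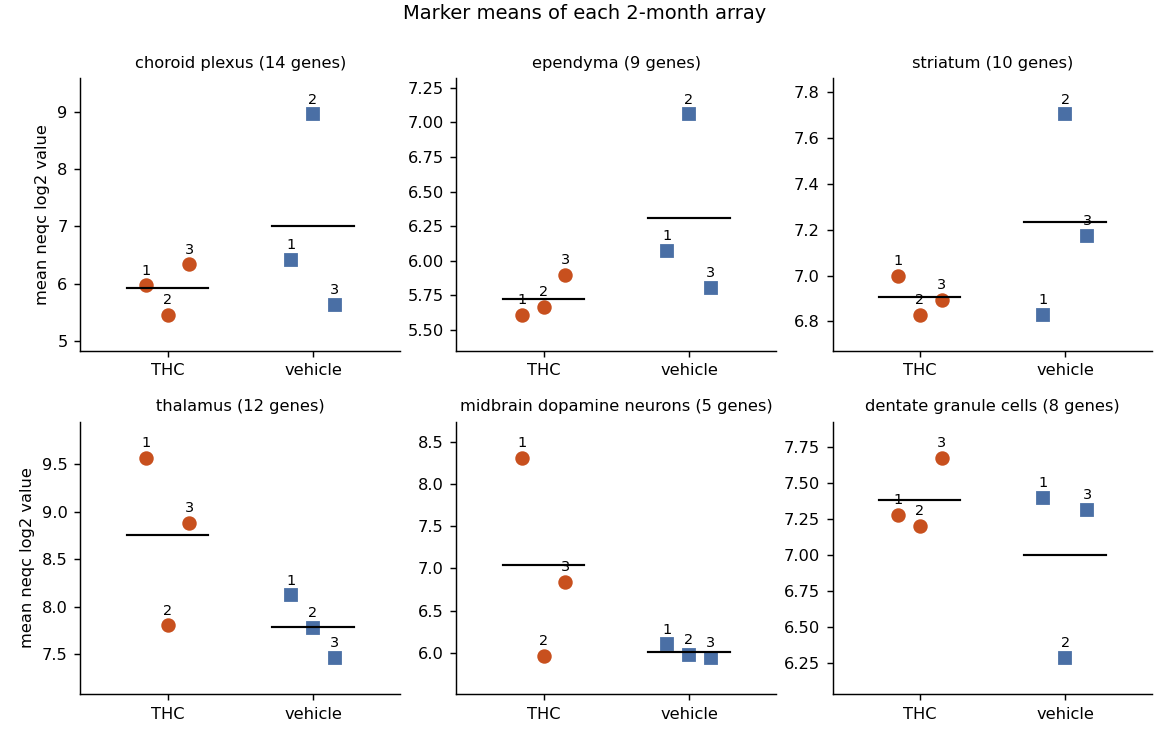
Mean neqc log2 value of the tested markers of 6 tissues or cell types on each 2-month array, with THC arrays left and vehicle arrays right. Numbers give the array and the black line the mean of the group. Choroid plexus and ependymal means are highest on vehicle array 2, at 8.95 and 7.06. Thalamic and midbrain means are highest on THC array 1, at 9.57 and 8.32.

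No probe passed the test. At a Benjamini-Hochberg adjusted p under 0.05 limma called 0 of 22625 probes (0%) for THC against vehicle at 2 months, and the smallest adjusted p was 0.781. Without adjustment 1384 probes had p under 0.05, 601 higher and 783 lower in THC hippocampi, where 1131 would be the number at that limit with no effect anywhere. Without THC array 3 that count was 872. At the level of genes, 327 of 12020 (2.72%) were higher and 388 (3.23%) lower at an unadjusted p under 0.05. All THC arrays lay above all vehicle arrays for 654 genes (5.44%) and below them for 759 genes (6.31%). In all 6084 genes were higher and 5936 lower on average, with a median log2 difference of 0.0036.

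Most differences were small beside the spread of the arrays. The quartiles of the log2 differences over probes were -0.16 and 0.17, with a median standard error of 0.21, and 116 probes differed by more than 1. The genes below are therefore given as values that did not pass the adjusted test. The same count of 0 was found under all 21 other settings tried, with a smallest adjusted p of 0.165 when the slide was a fixed block.

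**Figure D2:**
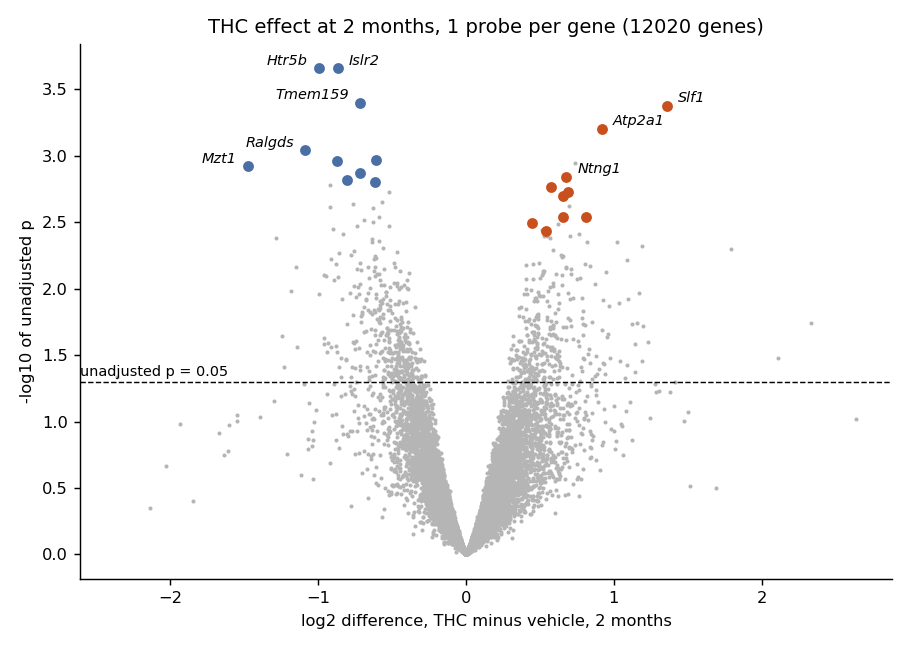
Log2 difference between THC and vehicle hippocampi at 2 months (horizontal axis) against -log10 of the unadjusted limma p (vertical axis) for 12020 genes. Coloured points are the 10 detected named genes of smallest p in each direction, and the dashed line is an unadjusted p of 0.05. The highest points, Htr5b and Islr2 on the left and Slf1 on the right, have an adjusted p of 0.781.

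The 10 genes of smallest p that were higher in THC hippocampi were Slf1, Atp2a1, Ntng1, Milr1, Foxred2, Efcab2, Mkx, Ctsk, Selenov and Gpc5. Their measured log2 differences lay between 0.45 and 1.36, of which those of Atp2a1 and Selenov rest on vehicle values not well above background, and the adjusted p of each was 0.781 (limma). Slf1, a scaffold protein that helps bring the SMC5/6 complex to stalled DNA replication forks, had the largest difference. It measured 7.09, 6.66 and 7.31 on THC arrays, against 5.69, 6.23 and 5.07 on vehicle arrays, a log2 difference of 1.36 ± 0.31 (SE, n = 3 arrays each). The lowest THC array was 0.43 above the highest vehicle array, and the difference was 0.85 within slide 2 and 2.24 within slide 4. Ntng1, netrin-G1, is a membrane-anchored protein of axons that binds a postsynaptic partner and is abundant on thalamocortical axons. It measured 10.38, 9.98 and 10.32 on THC arrays, against 9.59, 9.23 and 9.82 on vehicle arrays, a difference of 0.68 ± 0.18. The 3 other probes of Ntng1 were also higher, by 0.25 to 1.08. With the thalamic marker mean as a covariate the difference was 0.57, and without THC array 1 and vehicle array 2 it was 0.44, 2 settings chosen after seeing the data.

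Gpc5, a heparan sulfate proteoglycan of the cell surface that astrocytes express, measured 10.37, 10.19 and 10.42 on THC arrays, against 9.83, 9.82 and 9.70 on vehicle arrays. That difference of 0.54 ± 0.16 belonged to the brightest probe, and the 2 other tested probes of the gene differed by -0.29 and -0.38. Efcab2, a calcium-binding protein of motile cilia, showed the same split, at 0.65 ± 0.18 for its brightest probe and -0.40 and -0.36 for 2 others. Mkx, the Mohawk homeobox factor of tendon, was higher by 0.81 ± 0.23, and by 0.51 without vehicle array 2, where it was lowest at 6.25. Ctsk, the lysosomal protease cathepsin K, measured 6.62, 6.19 and 6.37 on THC arrays, against 5.92, 5.51 and 5.78 on vehicle arrays. Foxred2, an oxidoreductase of the endoplasmic reticulum, differed by 0.69 ± 0.19.

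The remaining 3 lay near the background. Atp2a1, the calcium pump of skeletal muscle sarcoplasmic reticulum (SERCA1), was detected on all 3 THC arrays at 5.90, 5.12 and 5.63, and was not well above background on any vehicle array, where it read 4.47, 4.63 and 4.79. It was at least 1.62-fold higher in THC hippocampi, where the vehicle side of each such bound is the higher of the probe's own value and the lowest detected signal of the array. Selenov, a selenoprotein, was detected on the THC arrays alone and was at least 1.08-fold higher. Milr1, an inhibitory immunoglobulin receptor of mast cells, read 5.39, 5.11 and 5.32 on THC arrays, all detected, against 4.69, 4.83 and 4.57 on vehicle arrays, of which 1 was detected.

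Among the 10 genes lower in THC hippocampi were a serotonin receptor, a synaptic vesicle transporter and proteins of the actin cytoskeleton. They were Htr5b, Islr2, Tmem159, Ralgds, Clcn1, Gal3st3, Mzt1, Myo10, Actn4 and Slc17a7, with measured log2 differences of -1.48 to -0.61 and an adjusted p of 0.781 (limma) each. Htr5b encodes the 5-HT5B serotonin receptor, which is functional in rodents and found in habenula and hippocampus. It measured 5.95, 6.27 and 6.38 on THC arrays, against 7.12, 6.89 and 7.57 on vehicle arrays, a difference of -0.996 ± 0.213. The highest THC array was 0.51 below the lowest vehicle array, and the differences within slides 2 and 4 were -0.94 and -1.20. Islr2, a leucine-rich repeat protein also called LINX that acts in axon guidance, measured 6.60, 6.86 and 6.63 on THC arrays, against 7.52, 7.27 and 7.89 on vehicle arrays, a difference of -0.87 ± 0.19.

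Slc17a7 (VGLUT1), the transporter that fills the synaptic vesicles of hippocampal pyramidal and cortical neurons with glutamate, was lower in THC hippocampi on every array. It measured 12.03, 12.56 and 12.27 on THC arrays, against 13.09, 12.72 and 12.89 on vehicle arrays, a difference of -0.61 ± 0.16. The groups were separated by 0.16 at their nearest arrays. The difference was -0.69 and -0.62 within slides 2 and 4, and -0.45 with the thalamic marker mean as a covariate. Slc17a7 was thus lower on the same THC arrays on which Slc17a6 averaged higher.

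Mzt1, a small subunit of the γ-tubulin complex that nucleates microtubules, had the largest difference of the 20, -1.48 ± 0.38. It measured 8.18, 6.39 and 7.63 on THC arrays, against 8.97, 9.15 and 8.50 on vehicle arrays, and the difference was -0.97 without THC array 2. Ralgds, an exchange factor for the GTPase Ral downstream of Ras, measured 6.03, 6.02 and 5.00 on THC arrays, against 7.22, 6.52 and 6.59 on vehicle arrays. Its difference was -1.09 ± 0.27. Actn4, the actin cross-linker α-actinin-4, differed by -0.80 ± 0.21, and by -0.51 without THC array 3, its lowest array at 6.77.

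Gal3st3, a sulfotransferase that acts on galactose residues of glycans, was tight within each group. It read 7.40, 7.34 and 7.40 on THC arrays, against 8.43, 8.20 and 8.13 on vehicle arrays. Myo10, the unconventional myosin of filopodial tips, differed by -0.71 ± 0.19 on its brightest probe and by -0.01 on the other. Tmem159, which encodes the lipid droplet protein also called promethin, differed by -0.72 ± 0.16 on one probe and by 0.16 on the next. Clcn1, the chloride channel of skeletal muscle, was detected on no THC array and on all 3 vehicle arrays, and was at least 1.17-fold lower in THC hippocampi.

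All 20 genes had arrays that did not overlap between the groups, which a choice by smallest p favours. All 20 also kept their direction within slide 2 and within slide 4, where 1 THC array meets 1 vehicle array. Groups without overlap fix that outcome, and these arrays entered the choice, so it adds no support. Quantile normalization without background correction kept the direction of all 20 and made 14 of them smaller by more than 1.5 times. Slf1 was then higher by 0.64, while Slc17a7 was lower by the same amount as before, -0.61.

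**Figure D3:**
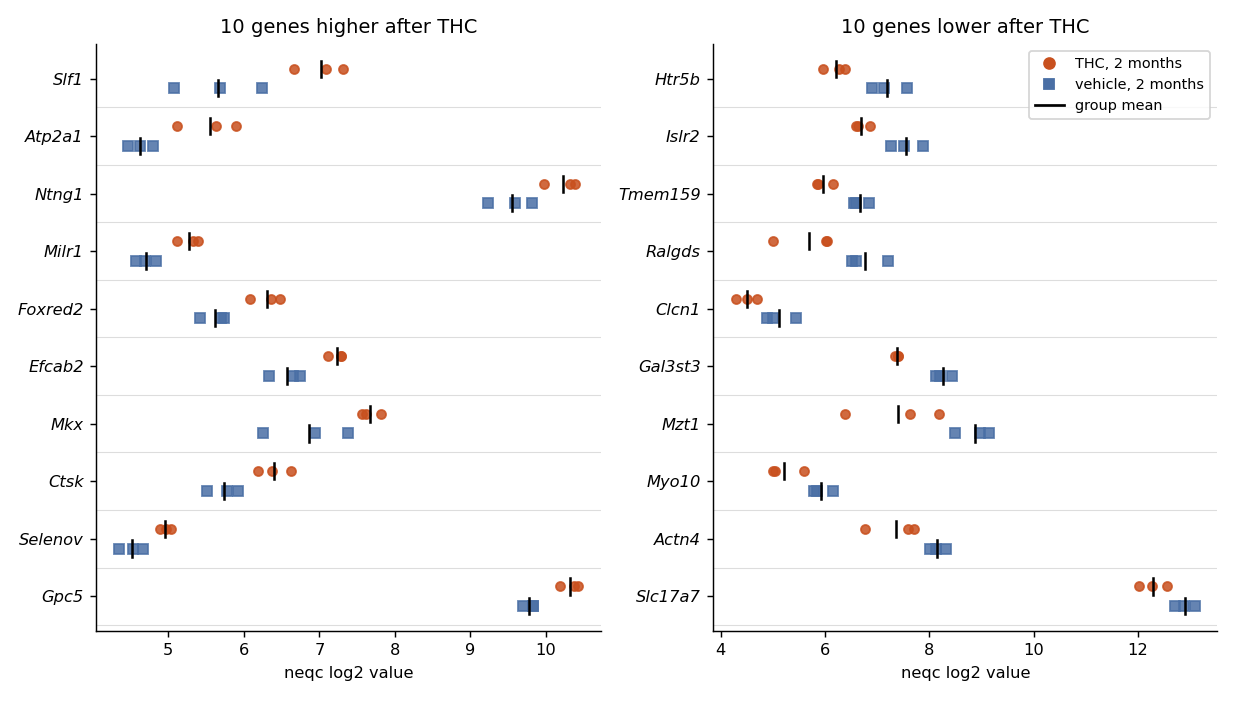
Neqc log2 value of the 10 higher (left panel) and 10 lower (right panel) named genes on each 2-month array, with THC arrays (circles) above vehicle arrays (squares) for each gene and a black line at each group mean. The groups are separate for every gene shown, by 0.16 at the nearest arrays for Slc17a7 and by 0.51 for Htr5b.

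Genes of the glutamatergic synapse were described by list. The postsynaptic scaffold list holds scaffold proteins that anchor receptors under the excitatory synapse, and also Camk2a, Camk2b, Nrgn and Syne1. All 13 tested members were lower in THC hippocampi on average, by -0.74 to -0.03 with a median of -0.25, where the median over all genes was 0.0036. Of the 13, 3 (23.1%) had arrays entirely below vehicle, against 6.31% of all genes, and 0 passed the adjusted test. Camk2a, the α subunit of the calcium/calmodulin kinase that long-term potentiation depends on, measured 10.81, 11.13 and 10.94 on THC arrays, against 11.58, 11.55 and 11.97 on vehicle arrays. Its difference of -0.74 ± 0.22 was shared by its other 2 probes, at -1.08 and -0.48.

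Dlg3 (SAP102), a scaffold that holds NMDA receptors, measured 10.77, 10.91 and 10.77 on THC arrays, against 11.42, 11.04 and 11.26 on vehicle arrays. Dlg4 (PSD-95), a scaffold for AMPA and NMDA receptor complexes, picked here after its values were seen, read 6.52, 6.39 and 6.07 on THC arrays, against 7.40, 6.70 and 6.82 on vehicle arrays. The adjusted p of all 3 was 0.781 (limma). The list median moved between -0.15 without vehicle array 3 and -0.31 without vehicle array 2 when 1 array at a time was left out, and was -0.18 with the thalamic marker mean as a covariate. With 1 array left out, between 0 and 3 of the 13 members were higher instead of lower. The median was -0.19 within slide 2 and -0.45 within slide 4.

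On the presynaptic side, 10 of 15 genes of synaptic vesicle release were lower, with a median of -0.12, and 3 (20.0%) had arrays entirely below vehicle against 6.31% of all genes. Complexin-2 (Cplx2), which clamps and then assists vesicle fusion, measured 8.01, 7.52 and 7.38 on THC arrays, against 8.07, 8.12 and 9.59 on vehicle arrays. Its difference of -0.96 ± 0.38 rested on vehicle array 3 and was -0.46 without it. Synapsin-2 (Syn2), a vesicle-tethering phosphoprotein, measured 10.97, 11.25 and 11.11 on THC arrays, against 11.37, 11.64 and 12.33 on vehicle arrays, and its difference of -0.67 ± 0.28 was -0.40 without vehicle array 3. Synapsin-1 (Syn1), named after its values were seen, differed by -0.13 ± 0.12. In the other direction, Vamp1 and Cplx1, a vesicle SNARE and a complexin, were higher by 0.45 ± 0.30 and 0.21 ± 0.14 with overlapping groups. Vamp1 was 0.067 without THC array 1 and 0.20 without vehicle array 3, and Cplx1 was 0.13 without vehicle array 3. The list median was -0.05 without THC array 1, -0.07 without THC array 3, and 0.08 with the thalamic marker mean as a covariate.

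Receptors for glutamate were divided. Of 12 AMPA, NMDA and kainate receptor subunits 7 were lower, with a median of -0.11. In each direction 1 (8.33%) was separate, near the 5.44% of all genes above and 6.31% below vehicle. The kainate receptor subunit Grik4, a marker of CA3, measured 6.10, 5.95 and 5.83 on THC arrays, against 6.41, 6.85 and 6.44 on vehicle arrays, a difference of -0.61 ± 0.21. Among 4 tested metabotropic glutamate receptors 3 were higher, with a median of 0.45. Grm8 and Grm4 encode presynaptic group III receptors that couple to Gi/o proteins, as CB1 does. Grm8 measured 6.92, 6.91 and 7.11 on THC arrays, against 6.79, 6.06 and 5.83 on vehicle arrays, a difference of 0.75 ± 0.25. Grm4 measured 8.85, 8.47 and 8.68 on THC arrays, against 8.48, 7.50 and 7.54 on vehicle arrays, where vehicle array 1 overlapped the THC arrays. Its difference was 0.83 ± 0.35 on that probe and 0.18 on the other. Grm5, the postsynaptic group I receptor whose activation drives endocannabinoid synthesis, differed by -0.40 ± 0.30, and by -0.03 without vehicle array 3.

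Synaptic adhesion proteins align both sides of the synapse. Of 16 tested, 9 were higher, with a median of 0.13, and 4 (25%) had arrays entirely above vehicle against 5.44% of all genes. These were Ntng1, described above, Cbln1, Cbln2 and Lrrtm3, the last by 0.24 ± 0.32. Cerebellin-2 (Cbln2), a secreted linker between neurexins and postsynaptic GluD receptors, measured 7.24, 6.82 and 6.70 on THC arrays, against 6.55, 5.54 and 5.56 on vehicle arrays, a difference of 1.04 ± 0.37. Cerebellin-1 (Cbln1), which like Lrrtm3 was picked here after its values were seen, measured 9.32, 9.25 and 9.66 on THC arrays, against 8.71, 8.07 and 7.77 on vehicle arrays. Its difference was 1.23 ± 0.50, and 1.34 with the thalamic marker mean as a covariate. Nrxn2, a presynaptic neurexin, had the opposite direction on its brightest probe, at 9.70, 9.93 and 9.11 on THC arrays, against 10.19, 10.18 and 10.10 on vehicle arrays. The difference of -0.58 ± 0.20 was -0.34 without THC array 3, and 0.027 on the next probe. The list median ran from 0.0026 without vehicle array 2 to 0.25 without vehicle array 3.

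The endocannabinoid system holds the receptor of THC and the enzymes of its natural ligands. Of 18 listed, 11 were tested, 6 were higher and 5 lower, and the median was 0.0037. Of the 11, 0 had arrays entirely above or below vehicle, against 5.44% and 6.31% of all genes, and 0 had an unadjusted limma p under 0.05, against 2.72% and 3.23%. In a list of 11 genes these counts of 0 are not read as a result about the list. Cnr1, which encodes the CB1 receptor that THC binds, measured 5.28, 5.29 and 5.50 on THC arrays, against 5.04, 5.51 and 5.59 on vehicle arrays, a difference of -0.02 ± 0.25 (adjusted p = 0.988, limma). The THC arrays lay inside the range of the vehicle arrays. Only 1 probe of Cnr1 was tested, and it was detected on all 3 arrays of each group. Its values were low, close to those of Atp2a1 on THC arrays, described above as near the background. The low signal limits what this reading shows. The CB1-interacting protein Cnrip1 was level between the groups too, at 11.19, 11.47 and 11.64 on THC arrays, against 11.44, 11.57 and 11.33 on vehicle arrays.

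The enzymes that make and break down endocannabinoids had groups that overlapped. Mgll, the main hydrolase of 2-arachidonoylglycerol, measured 9.93, 10.24 and 9.92 on THC arrays, against 9.96, 9.64 and 9.76 on vehicle arrays. Abhd6 and Abhd12, which hydrolyse the same lipid, differed by -0.05 ± 0.37 and -0.39 ± 0.20, and Daglb, one of the lipases that make it, differed by 0.04 ± 0.18. Faah, which degrades anandamide, measured 10.09, 10.13 and 10.29 on THC arrays, against 10.56, 10.08 and 10.26 on vehicle arrays. Napepld, Abhd4 and Gde1, enzymes on the routes to anandamide, differed by 0.14 ± 0.24, 0.21 ± 0.23 and 0.00 ± 0.13. Fabp5, a lipid carrier for anandamide, had the widest difference of the list, 0.56 ± 0.33. Its vehicle array 1 read 5.60 while the other 5 arrays read 6.75 to 7.16, and the difference was 0.16 without that array.

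Signalling partners below Gi/o-coupled receptors differed in both directions. Of 23 tested genes for G protein subunits, adenylyl cyclases and regulators of G protein signalling, 7 were higher and 16 lower with a median of -0.08 that ran from -0.04 without THC array 2 to -0.16 without vehicle array 1, and 3 (13.0%) were separate in each direction, against 5.44% of all genes above and 6.31% below vehicle. Gnao1, the α subunit of Go, a G protein that CB1 couples to, measured 10.13, 10.16 and 9.56 on THC arrays, against 10.76, 10.48 and 10.92 on vehicle arrays. Its difference was -0.77 ± 0.21 on that probe and 0.08 on the next. Gnb1, a β subunit, measured 8.15, 8.08 and 7.92 on THC arrays, against 8.89, 8.45 and 8.39 on vehicle arrays.

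Higher values belonged to a regulator and to calcium-stimulated cyclases. Rgs10, a GTPase activator for Gi/o subunits, measured 10.30, 10.22 and 10.14 on THC arrays, against 9.17, 9.89 and 9.78 on vehicle arrays, and the difference of 0.60 ± 0.24 was 0.38 without vehicle array 1. Adcy8, an adenylyl cyclase that calcium and calmodulin stimulate, was tight within each group at 9.47, 9.48 and 9.55 on THC arrays, against 8.87, 8.86 and 8.97 on vehicle arrays. Adcy1, a second cyclase of that kind, was higher by 0.77 ± 0.41, and by 0.26 with the slide as a fixed block. Adcy3 differed by -0.38 ± 0.18, and by -0.20 without THC array 3. Both were named after their values were seen, as the other genes of the list with separate groups. The adjusted p of Gnao1, Gnb1, Rgs10, Adcy8, Adcy1 and Adcy3 was 0.781 (limma).

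Immediate early genes, which neurons switch on within minutes of strong activity, were split in direction. Of 19 tested, 10 were higher and 9 lower, with a median of 0.05. That split depended on single arrays, with 5 higher without THC array 2 and 14 higher without THC array 3 or vehicle array 1. The median ran from -0.10 without vehicle array 3 to 0.19 without vehicle array 1. Egr1 measured 13.39, 13.40 and 13.05 on THC arrays, against 13.01, 12.74 and 12.68 on vehicle arrays, a difference of 0.47 ± 0.30. It was the 1 member (5.26%) with separate groups, against 5.44% of all genes above vehicle. Fos measured 9.86, 9.49 and 9.40 on THC arrays, against 9.52, 9.20 and 8.65 on vehicle arrays, with overlap. Nptx2, a secreted pentraxin that clusters AMPA receptors, differed by -0.61 ± 0.27 and Jun by -0.27 ± 0.26. Nptx2 overlapped on THC array 2, at 9.72, and its difference was -0.40 without THC array 3.

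In the neurotrophin list the 5 tested genes were Bdnf and the receptors Ntrk2, Ntrk3, Ngfr and Sort1. The 4 receptors were lower and Bdnf was higher. Ntrk2, the BDNF receptor TrkB, measured 10.22, 9.93 and 9.80 on THC arrays, against 10.31, 10.48 and 10.45 on vehicle arrays, a difference of -0.43 ± 0.15 on its brightest probe and 0.02 on the next. Bdnf itself differed by 0.21 ± 0.23, and Sort1, a sorting receptor for proBDNF, by -0.13 ± 0.15. The list median of -0.13 was -0.03 without vehicle array 1.

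The histone acetylation list holds enzymes that write and erase acetyl groups, along with Creb1 and Crtc1, which are not such enzymes. Its genes were split evenly, with 12 of 23 higher, 11 lower and a median of 0.0061. None had an unadjusted limma p under 0.05, against 2.72% of all genes higher and 3.23% lower. In a list of 23 this is not read as a result about the list. Sirt3, a mitochondrial deacetylase of the sirtuin family, measured 10.86, 11.01 and 10.96 on THC arrays, against 10.41, 10.57 and 10.71 on vehicle arrays. The acetyltransferase Kat2a (GCN5) measured 7.98, 8.14 and 7.59 on THC arrays, against 8.22, 8.23 and 8.37 on vehicle arrays, and its difference of -0.37 ± 0.18 was -0.21 without THC array 3. Kat5, an acetyltransferase, differed by -0.43 ± 0.23 with overlap, and by -0.13 without THC array 3 and -0.66 without THC array 1. Hdac9, a deacetylase, differed by 0.37 ± 0.25 with overlap, and by 0.22 to 0.58 with 1 array left out. Kat6b, named after its values were seen as the remaining gene with separate groups, differed by 0.11 ± 0.15. Of 10 tested genes of DNA methylation 4 were higher and 6 lower, with a median of -0.09. Of the 10, 0 were separate, against 5.44% of all genes above and 6.31% below vehicle, too short a list to read this as a result.

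Of 16 tested genes of the circadian clock 14 were higher in THC hippocampi, with a median of 0.18. Between 12 and 15 were higher when 1 array at a time was left out, and the median then ran from 0.12 without vehicle array 2 to 0.32 without vehicle array 1. Arrays were entirely above vehicle for 3 (18.8%), against 5.44% of all genes. Nr1d2 (REV-ERBβ), a nuclear receptor that represses clock genes, measured 9.11, 9.22 and 8.80 on THC arrays, against 7.70, 8.66 and 8.32 on vehicle arrays, a difference of 0.82 ± 0.41. Bhlhe40 (DEC1), a repressor of CLOCK-driven transcription, measured 10.89, 10.73 and 10.92 on THC arrays, against 10.49, 10.05 and 10.57 on vehicle arrays. Tef, an output activator named after its values were seen, was higher by 0.51 ± 0.31 on its brightest probe and differed by -0.13 on the next. With the slide as a fixed block the differences were 0.38 for Nr1d2, 0.24 for Bhlhe40 and 0.14 for Tef. Npas2, the paralog of CLOCK, was the main exception at 6.18, 6.91 and 5.86 on THC arrays, against 7.21, 6.83 and 6.82 on vehicle arrays, and its difference of -0.64 ± 0.24 was -0.41 without THC array 3. The labels do not give the hour at which each mouse was killed, and time of day was not tested.

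The complement and antigen presentation list had a median of -0.22 with 10 of 17 genes lower, which was -0.06 without THC array 2 and 0.02 without vehicle array 3. In it C1qc and C1qb, chains of the first complement component that microglia make, differed by -0.33 ± 0.20 and -0.29 ± 0.22, Cd74 (the MHC class II invariant chain) by -0.78 ± 0.38 and H2-K1 by 0.47 ± 0.28. Cd74 was -0.39 without vehicle array 3, and H2-K1 was 0.29 without vehicle array 1. C1qb was named after its values were seen, as was Psmb8, which was detected on no THC array and on 1 vehicle array. Of 12 genes of cholesterol synthesis 9 were lower, with a median of -0.11, where Fdps differed by -0.30 ± 0.15 and Nsdhl, named after its values were seen, by -0.13 ± 0.19. Interferon response genes were lower for 10 of 14 (median -0.12) and inflammation genes for 7 of 10 (median -0.10).

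GABA-A receptor genes were higher for 5 of 8 (median 0.11), adult neurogenesis genes for 7 of 11 (median 0.09), oxidative phosphorylation genes for 14 of 21 (median 0.07) and cytosolic ribosomal proteins for 9 of 16 (median 0.06). Medians between -0.01 and 0.05 were found for potassium channels (12 of 23 higher), voltage-gated sodium and calcium channels (9 of 17 higher), heat shock and chaperones (9 of 17 higher), glucocorticoid response genes (8 of 14 higher) and collagens and matrix (8 of 17 higher). Over the 25 pathway lists the medians ran from -0.25 to 0.45, and 0 of the 364 list entries tested passed the adjusted test. With 1 probe per gene and 3 arrays a side, these counts describe the lists and were not tested as sets.

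**Figure D4:**
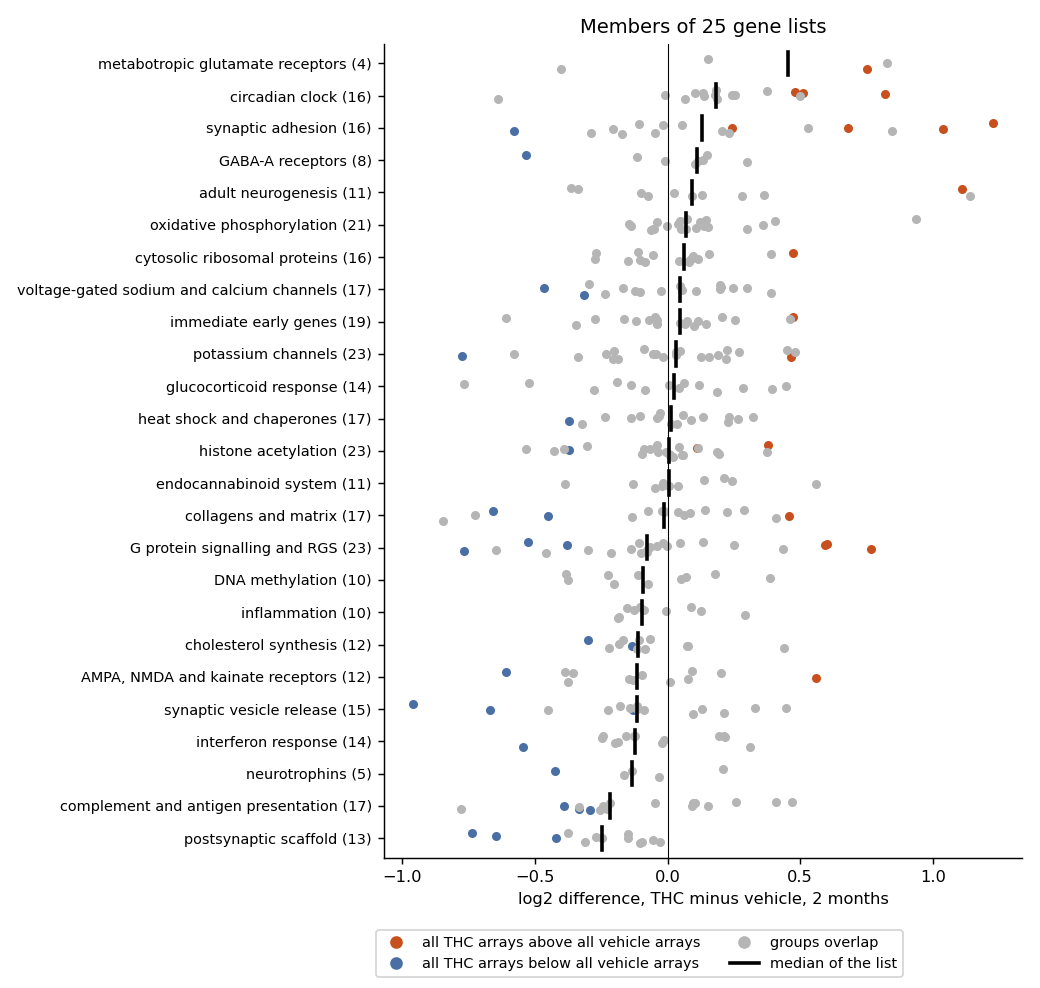
Log2 difference between THC and vehicle hippocampi at 2 months of every tested member (points) of 25 pathway lists, with the number tested in brackets and the list median as a black bar. Coloured points are genes whose arrays did not overlap between the groups. The postsynaptic scaffold list lies wholly below 0 with a median of -0.25, and the endocannabinoid list is centred at 0.0037 with no coloured point.

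Markers of the hippocampal subfields had medians between -0.15 and 0.41. Dentate granule cell markers were higher for 6 of 8 with a median of 0.41, which was 0.09 without vehicle array 2. Lct, a granule cell marker in mouse, measured 6.76, 6.17 and 6.91 on THC arrays, against 6.17, 4.34 and 5.91 on vehicle arrays, and its difference of 1.14 ± 0.47 was 0.58 without vehicle array 2. C1ql2, a complement-related protein secreted at mossy fibre synapses, measured 11.69, 11.05 and 12.21 on THC arrays, against 11.72, 8.55 and 11.31 on vehicle arrays, and its difference of 1.12 was 0.14 without vehicle array 2. Vehicle array 2, which was high in choroid plexus markers, was thus low in both. CA1 markers were higher for 4 of 7 (median 0.05), with Man1a at 0.49 ± 0.19 and Fibcd1 at -0.84 ± 0.50. Man1a differed by 0.02 on its other probe, and Fibcd1 by -0.45 without vehicle array 3. CA3 and CA2 markers were lower for 7 of 10 (median -0.15), with Nectin3 at -0.61 ± 0.56 and Coch at 0.57 ± 0.37. Nectin3 was -0.28 with the slide as a fixed block and -0.14 with the choroid plexus marker mean as a covariate, and Coch was 0.078 without vehicle array 3 and 1.12 without vehicle array 2. Inhibitory neuron markers were higher for 9 of 13 (median 0.07) and neocortical markers for 8 of 10 (median 0.02).

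Glial markers were mixed. Microglial markers were lower for 6 of 10 (median -0.03). Below vehicle 2 of the 10 (20%) were separate, against 6.31% of all genes. The fractalkine receptor Cx3cr1 was one, at 8.37, 8.52 and 8.48 on THC arrays, against 8.74, 8.71 and 8.80 on vehicle arrays. Olfml3 was the other by a narrow margin, at 7.39, 7.73 and 7.89 on THC arrays, against 7.94, 7.93 and 7.91 on vehicle arrays. P2ry12 and Ctss of the same list were higher, by 0.62 ± 0.49 and 0.56 ± 0.39 with overlapping groups. Astrocyte markers were higher for 5 of 11 (median -0.05). The gap junction protein Gjb6 (connexin 30) measured 11.37, 11.21 and 11.43 on THC arrays, against 10.97, 10.89 and 10.76 on vehicle arrays, a difference of 0.46 ± 0.19, and Aldh1l1, a folate enzyme of astrocytes, differed by 0.22 ± 0.15. Gfap, an intermediate filament of astrocytes, differed by -0.29 ± 0.19 with overlap.

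Oligodendrocyte and myelin markers were higher for 8 of 11 (median 0.09), but without THC array 1 for 0 of 11 (median -0.20). Precursor markers were higher for 3 of 8 (median -0.05), where Lhfpl3 differed by 0.51 ± 0.31 and Cspg4 (NG2) by -0.35 ± 0.19. Markers of endothelium and mural cells (7 of 15 higher, median -0.0013), of meninges and fibroblasts (7 of 13 higher, median 0.04) and of blood (5 of 6 higher, median 0.07) had small medians, though that of blood was 0.43 without vehicle array 2. Among adjacent tissue markers not yet given, the ependymal genes Rsph1 differed by -1.23 ± 0.55 and Pifo was at least 1.56-fold lower, being detected on all 3 vehicle arrays and on no THC array. The choroid plexus genes Kl and Col8a2 differed by -1.55 ± 0.86 and -1.03 ± 0.66. Without vehicle array 2 the differences were -0.73 for Rsph1, -0.63 for Kl and -0.20 for Col8a2. Pifo read 5.26, 6.36 and 4.94 on vehicle arrays 1 to 3, and its measured difference of -0.91 was -0.49 without vehicle array 2. The striatal markers Foxp1 and Rgs9 differed by -0.72 ± 0.25 and -0.65 ± 0.36. Foxp1 differed by -0.09 on its other probe, and Rgs9 by -0.41 without vehicle array 2. The thalamic marker Adarb1 was higher by 0.42 ± 0.19, and the midbrain markers Ret and Ddc by 1.15 ± 0.44 and 0.70 ± 0.47, which were 0.54 and 0.0090 without THC array 1.

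The effect at 2 months was then set against that at 12 months, where no array is shared. The test of the difference between both effects called 0 of 22625 probes, with a smallest adjusted p of 0.949 (limma) and 1179 probes at an unadjusted p under 0.05, near the 1131 of no effect. At 12 months alone 0 probes passed and 1080 had an unadjusted p under 0.05. Among the 20 named genes 15 had the same direction at 12 months. The share of all genes that did so was not counted, so the 15 are not read as agreement between the ages. Over all 20 the 12-month sizes were at most 0.55 on the log2 scale, that of Ntng1, which had the opposite direction. An unadjusted p under 0.05 for the difference between the ages was found for 19 of the 20, which were chosen on the effect at 2 months that enters that difference.

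The 5 genes of smallest p for the difference between ages were Ntng1, Cxxc4, Atp2a1, Dnase1l2 and Fnbp4, each with an adjusted p of 0.949 (limma). Their measured means lay in opposite directions at the 2 ages, with Atp2a1, Dnase1l2 and Fnbp4 near the background. Ntng1 differed by 0.68 ± 0.18 at 2 months and by -0.55 ± 0.14 at 12 months. Cxxc4 (IDAX), an inhibitor of Wnt signalling, measured 8.78, 8.85 and 8.91 on THC arrays at 2 months, against 8.49, 8.10 and 8.31 on vehicle arrays, and differed by 0.55 ± 0.16 at 2 months and by -0.49 ± 0.13 at 12 months. Its next probe differed by -0.09 at 2 months. Dnase1l2, a deoxyribonuclease, read 5.41, 5.08 and 5.24 on THC arrays at 2 months, all detected, against 4.54, 4.48 and 5.05 on vehicle arrays, of which 1 was detected. At 12 months it was detected on 1 of 5 THC arrays, against 5 of 5 vehicle arrays. Atp2a1, at least 1.62-fold higher at 2 months, was detected at 12 months on 3 of 5 THC arrays, against 5 of 5 vehicle arrays. The formin-binding protein Fnbp4 differed by -0.41 ± 0.15 at 2 months and by 0.35 ± 0.11 at 12 months. That probe was detected at 12 months on 5 of 5 THC arrays, against 3 of 5 vehicle arrays. On the next probe of Fnbp4 the difference at 2 months was 0.24. Slc17a7, at -0.61 at 2 months, differed by -0.01 ± 0.13 at 12 months, and Camk2a, at -0.74 at 2 months, differed by 0.20 ± 0.17. The mean of the thalamic markers, higher in THC hippocampi at 2 months at 8.75 against 7.79, was 8.20 in THC against 8.45 in vehicle hippocampi at 12 months.

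**Figure D5:**
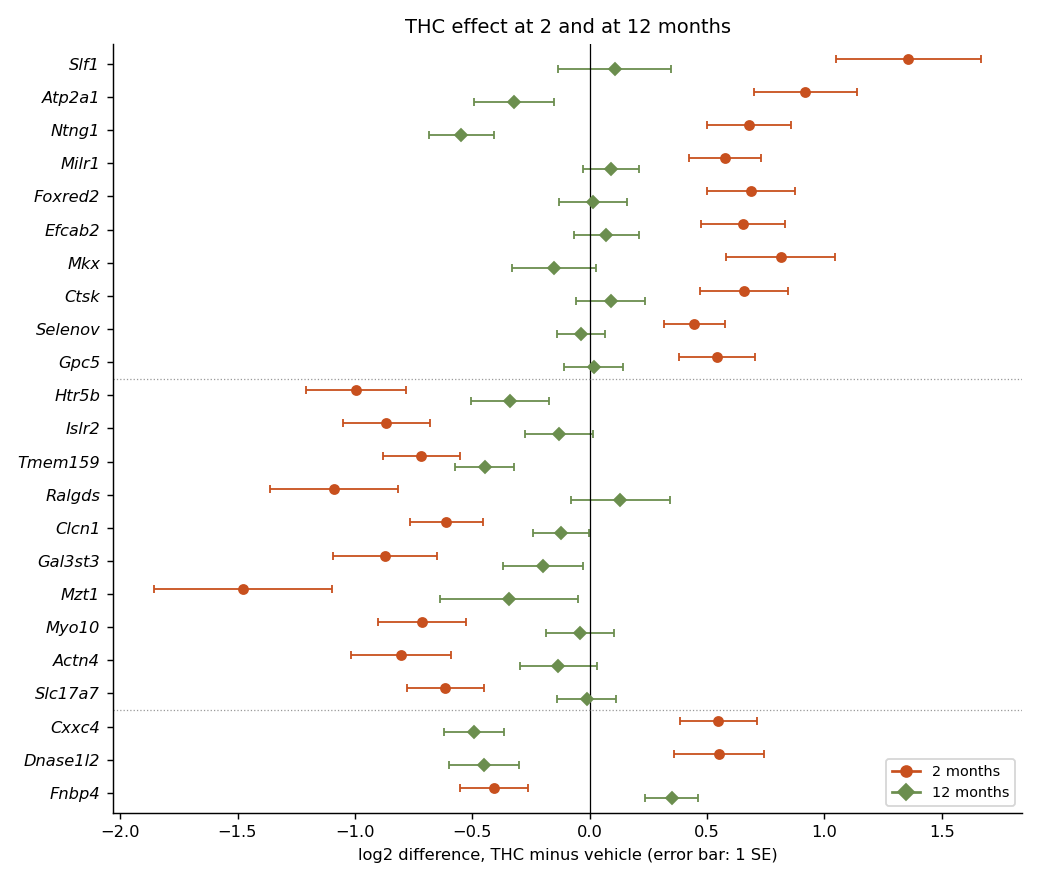
Log2 difference between THC and vehicle hippocampi at 2 months (circles) and at 12 months (diamonds), with 1 SE, for the 10 higher and 10 lower genes named at 2 months and for the genes of smallest p for the difference between ages. The 12-month values of the 20 genes reach at most 0.55 in size, and Ntng1, Atp2a1, Cxxc4, Dnase1l2 and Fnbp4 lie on opposite sides of 0 at the 2 ages. The 2-month points of Atp2a1, Selenov and Clcn1 rest on a group not well above background.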

How the data were processed

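Total RNA was labelled with biotin and hybridized to Illumina bead arrays, per the labels' protocols. The authors deposited log2 intensities without normalization between arrays, paired with detection p-values, per the file headers. Their series matrix of log2 values matched quantile-normalized scanner values within 0.00713. The submitters' processing notes name Partek. How the authors treated background is not given in the sources used here. On 1 array 26 detection p cells held text, which counted as missing.

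Groups and slides came from the labels. Values were corrected and normalized with neqc (offset 16) in limma 3.58.1 (R 4.3.3). A mean per group was fitted over all 16 arrays (lmFit, eBayes), with two-sided p-values adjusted by Benjamini-Hochberg over 22625 probes. The 12-month arrays thus share in the estimate of the spread. The fit was tested on simulated data. Tables and plots were made in Python 3.11.15 with matplotlib 3.10.9. Array number limits the precision.

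One gene symbol was given for 34885 probes, several for 18 and none for 10378. Of those with a symbol, 34807 matched RefSeq by Entrez ID, with 0 symbols updated. One probe per gene was used, the one of highest mean. The rule for names took the 10 genes of smallest p in each direction among those detected on all arrays of a 2-month group, passing over 2 unnamed gene models, the 5 of smallest p for the difference between ages, the 2 members of smallest p in each direction of the lists described, and all endocannabinoid genes. Other names are marked in the text. The members, lists and rules were chosen with earlier results of these data known. The 25 pathway lists and 17 marker lists were described by counts and medians, with no set test. Alternatives were the normalization, the deposited matrix, detection filters, slide blocks, variance models, array weights, subsets of arrays, marker means as covariates and other probes.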

Additional observations from a re-analysis of the deposited data

How the results depend on the processing

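The count of 0 probes at 2 months held under the 21 alternatives run, and that of the difference between ages under 20, while the number of probes at an unadjusted p under 0.05 (limma) ran from 872 without THC array 3 to 2593 with no detection filter at 2 months, and from 756 to 2347 for the difference between ages. At 2 months it was 2280 with the slide as a fixed block (smallest adjusted p 0.165), 1998 with it as a random block, 1973 without vehicle array 2, 2385 with the thalamic marker mean as a covariate and 1778 without both THC array 1 and vehicle array 2, these last 2 settings chosen after seeing the data. Of 2328 alternative values of 104 genes, 45 changed sign, in 23 genes. On the next brightest probe these were Efcab2 at -0.40, Gpc5 at -0.29, Tmem159 at 0.16, Cxxc4 at -0.090, Dnase1l2 at -0.053, Fnbp4 at 0.24, Mgll at -0.017, Napepld at -0.20, Gde1 at -0.26, Gnao1 at 0.081, Nrxn2 at 0.027, Ntrk2 at 0.019, Tef at -0.13, Hdac9 at -0.13 and Kat6b at -0.39. Leaving out 1 array at a time gave Cnr1 -0.19 to 0.083, Cnrip1 -0.12 to 0.11, Daglb -0.095 to 0.14, Abhd6 -0.14 to 0.040 and Gde1 -0.037 to 0.028, while Col8a2 ran from -1.64 to -0.20. Without THC array 1 and vehicle array 2 (replicates 1 and 2 of their groups), Cnr1 was 0.081, Cnrip1 0.17, Abhd6 0.060 and Col8a2 0.15. With the thalamic marker mean as a covariate, Cnr1 was 0.13, Daglb -0.044, Napepld -0.040, Abhd6 0.53, Vamp1 -0.13 and Ddc -0.14. With the slide as a fixed block, Cnrip1 was 0.095, Gde1 -0.068 and Lrrtm3 -0.062, and as a random block Cnrip1 was 0.051 and Gde1 -0.038. With choroid plexus marker means as a covariate, Cnrip1 was 0.078 and Gde1 -0.012. Gde1 was -0.018 with array weights and -0.037 without slide 1. The cause of these changes was not tested. For 54 of the 104 genes leaving out 1 array moved the difference by more than 1.5 times. Of 208 within-slide values 13 had the opposite sign, and of 840 alternative medians of the 42 lists 70 moved by more than 1 SD. No paired analysis was possible because the labels give no replicate numbers, so arrays that share a slide were compared through the slide block and the within-slide values instead. The number of arrays limits the precision.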
